A study of Mus musculus with 5 samples.

Results

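The SLC25 mitochondrial carriers are described here across 5 RNA sequencing libraries of Ba/F3, a line of mouse pro-B cells known to need interleukin-3 for growth. Members were the rows of the deposited table whose symbol was SLC25A followed by a number alone, without pseudogene in the description, which gave 48 genes of 50867. Each library came from cells infected with a different lentivirus, and the libraries are labelled S_PXT1_K118R, S_PXT1, WT_K118R, WT and PMSCV. The name PMSCV is that of a retroviral vector, and this library is taken as the control. K118R names a lysine to arginine substitution, and the labels do not spell out S and WT. No age, dose or time is given. Since every group is 1 library of 1 cell line, differences have no replicate check and no p-value is given. The intervals given are exact 95% intervals and cover counting error only, and the reads are not stated to carry molecular identifiers.

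SLC25 proteins sit in the inner membrane of mitochondria, with a few members in other membranes, and move nucleotides, phosphate, acids, amino acids and cofactors between the matrix and the cytosol. The ADP/ATP carriers export the ATP made by oxidative phosphorylation and import ADP, and the aspartate/glutamate carriers are a step of the malate-aspartate shuttle, which brings reducing equivalents of cytosolic NADH into the matrix. In an RNA measure of whole cultures, fewer cells of a type and less RNA per cell cannot be told apart.

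Total counts were between 250409 and 351693, and 1 count corresponded to 2.92 to 3.93 CPM, which are counts per 1000000 after TMM scaling of the library totals. The table lists human gene models with human coordinates for cells labelled as mouse, and names no genome build. Of the 48 members 46 had a mouse gene of the same symbol, and SLC25A6 and SLC25A52 had none. PXT1, the gene in the construct labels, was at 0 counts throughout (a count of 0 allows up to 3), so it gave no check of the labels. Of 12 markers of Ba/F3 and early B cells, CD79A, CD79B, VPREB1, IGLL1 and IL3RA had 0 counts in every library, and GATA2, a transcription factor of blood progenitors, gave 84, 202, 123, 128 and 96 counts in S_PXT1_K118R, S_PXT1, WT_K118R, WT and PMSCV. S_PXT1_K118R and S_PXT1 held counts for 7044 and 7393 genes, against 11504 in WT_K118R, 11712 in WT and 11492 in PMSCV. In S_PXT1_K118R and S_PXT1 a list of 7 squamous epithelium markers was at 0, while it summed to 1100 CPM in WT_K118R, 2743 in WT and 896 in PMSCV.

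The family was lowest in S_PXT1. Its 48 members summed to 176 counts (692 CPM) in S_PXT1_K118R, 57 counts (222 CPM) in S_PXT1, 203 counts (602 CPM) in WT_K118R, 311 counts (910 CPM) in WT and 188 counts (669 CPM) in PMSCV. Relative to their parents, the K118R libraries went in opposite directions. The sum was 3.11-fold higher (2.30 to 4.27) in S_PXT1_K118R than in S_PXT1, and 0.66 of the WT level (0.55 to 0.79) in WT_K118R. Between constructs it was 4.09-fold lower in S_PXT1 than in WT, a fold of 0.24 (0.18 to 0.32), but 1.15 (0.93 to 1.41) in S_PXT1_K118R over WT_K118R. Against the vector the fold was 0.33 (0.24 to 0.45) in S_PXT1 and 1.36 (1.13 to 1.64) in WT.

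SLC25A4, SLC25A5 and SLC25A12 together made up most of the differences between each K118R library and its parent. Between WT_K118R and WT, however, SLC25A12 differed little, with 39 and 46 counts. These genes were singled out after their values were seen, and they were the members that averaged 20 counts or more. Together they held 73.9% of the family's counts in S_PXT1_K118R (66.7% to 80.2%), 17.5% in S_PXT1 (8.75% to 29.9%), 43.3% in WT_K118R (36.4% to 50.5%), 63.0% in WT (57.4% to 68.4%) and 42.6% in PMSCV (35.4% to 49.96%). The other 45 members summed to 46 counts in S_PXT1_K118R and 47 in S_PXT1, and to 115 counts in both WT_K118R and WT, with 108 in PMSCV. So the remainder stood at 181 and 183 CPM in S_PXT1_K118R and S_PXT1, below the 341, 336 and 384 CPM of WT_K118R, WT and PMSCV. The lower remainder ran along with the lower number of genes detected in both S_PXT1 libraries, and the part of that in it was not tested.

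**Figure D1:**
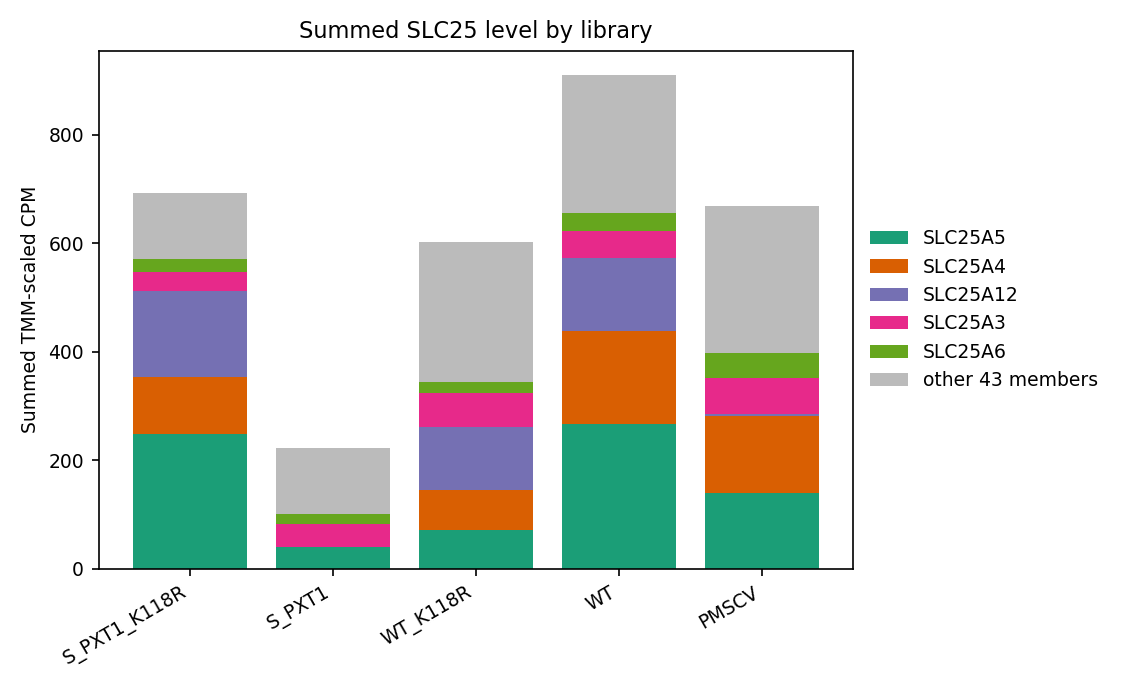
Summed TMM-scaled CPM (y axis) of the 48 SLC25 members in each of the 5 libraries (x axis), split into SLC25A5, SLC25A4, SLC25A12, SLC25A3, SLC25A6 and the other 43 members. The S_PXT1 bar, at 222 CPM, is the lowest, the WT bar, at 910 CPM, is the highest, and SLC25A12 is all but missing in S_PXT1 and PMSCV.

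The ADP/ATP carriers exchange matrix ATP for cytosolic ADP. SLC25A4 is the isoform of heart and skeletal muscle, SLC25A5 that of dividing cells, and SLC25A6 is widely expressed in human tissues, with no gene of that symbol in the mouse table. Because paralogs this close may exchange reads, the mouse coding sequences of the first pair were compared. In GENCODE M21 (GRCm38), Slc25a4 lies at chr8:46206797-46211284 on the minus strand and Slc25a5 at chrX:36795651-36798807 on the plus strand. Both have a coding length of 897 bases and were identical at 695 positions (77.5%), with a longest shared run of 20 bases. None of the 868 words of 30 bases in Slc25a4 was present in Slc25a5. The stretch around that run, bases 287 to 376 of each coding sequence, is shown with the run in capitals, because it holds the longest run the pair shares:
Slc25a4: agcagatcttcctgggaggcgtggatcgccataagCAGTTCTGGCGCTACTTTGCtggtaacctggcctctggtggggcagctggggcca
Slc25a5: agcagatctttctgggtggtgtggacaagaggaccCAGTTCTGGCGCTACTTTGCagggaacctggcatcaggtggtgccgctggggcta
The stretches were identical at 71 of 90 positions. The human copies, on which the reads were counted, were not analysed here.

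SLC25A4 (ENSG00000151729, chromosome 4, 185143241 to 185150382 in the table's coordinates) had 27 counts in S_PXT1_K118R, 0 in S_PXT1, 25 in WT_K118R, 59 in WT and 40 in PMSCV. These are 106, 0, 74.1, 173 and 142 CPM, and a count of 0 in S_PXT1 allows up to 3 counts, or 11.7 CPM. SLC25A4 was thus without a count in S_PXT1, and every other library had at least 25. It was at least 6.89-fold higher in S_PXT1_K118R than in S_PXT1, which is the lower bound of the exact interval. In WT_K118R it was 2.33-fold lower than in WT, a fold of 0.43 (0.26 to 0.70).

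SLC25A5 (ENSG00000005022, chromosome X, 119468400 to 119471319) had 63 counts in S_PXT1_K118R, 10 in S_PXT1, 24 in WT_K118R, 91 in WT and 39 in PMSCV. In CPM the levels were 248 (190 to 317), 39.0 (18.7 to 71.7), 71.1 (45.6 to 106), 266 (214 to 327) and 139 (98.6 to 190). WT and S_PXT1_K118R were high, with overlapping intervals, and S_PXT1 and WT_K118R were low, also with overlapping intervals, while PMSCV lay between. The order from high to low was WT, S_PXT1_K118R, PMSCV, WT_K118R and S_PXT1. SLC25A5 was 6.35-fold higher (3.24 to 13.9) in S_PXT1_K118R than in S_PXT1. It was 3.74-fold lower in WT_K118R than in WT, a fold of 0.27 (0.16 to 0.42).

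The comparison of the constructs reversed with the substitution. SLC25A5 was 6.83-fold lower in S_PXT1 than in WT (fold 0.15, 0.07 to 0.28) and 3.48-fold higher (2.14 to 5.83) in S_PXT1_K118R than in WT_K118R. These are the same 4 libraries as in the K118R comparisons, so the values are not measured again. SLC25A4 was at least 11.6-fold lower in S_PXT1 than in WT, against a fold of 1.43 (0.80 to 2.57) in S_PXT1_K118R over WT_K118R. Against PMSCV, S_PXT1 was at least 9.44-fold lower for SLC25A4 and 3.56-fold lower for SLC25A5 (fold 0.28, 0.12 to 0.57). WT over PMSCV gave folds of 1.21 (0.80 to 1.86) for SLC25A4 and 1.92 (1.30 to 2.87) for SLC25A5.

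**Figure D2:**
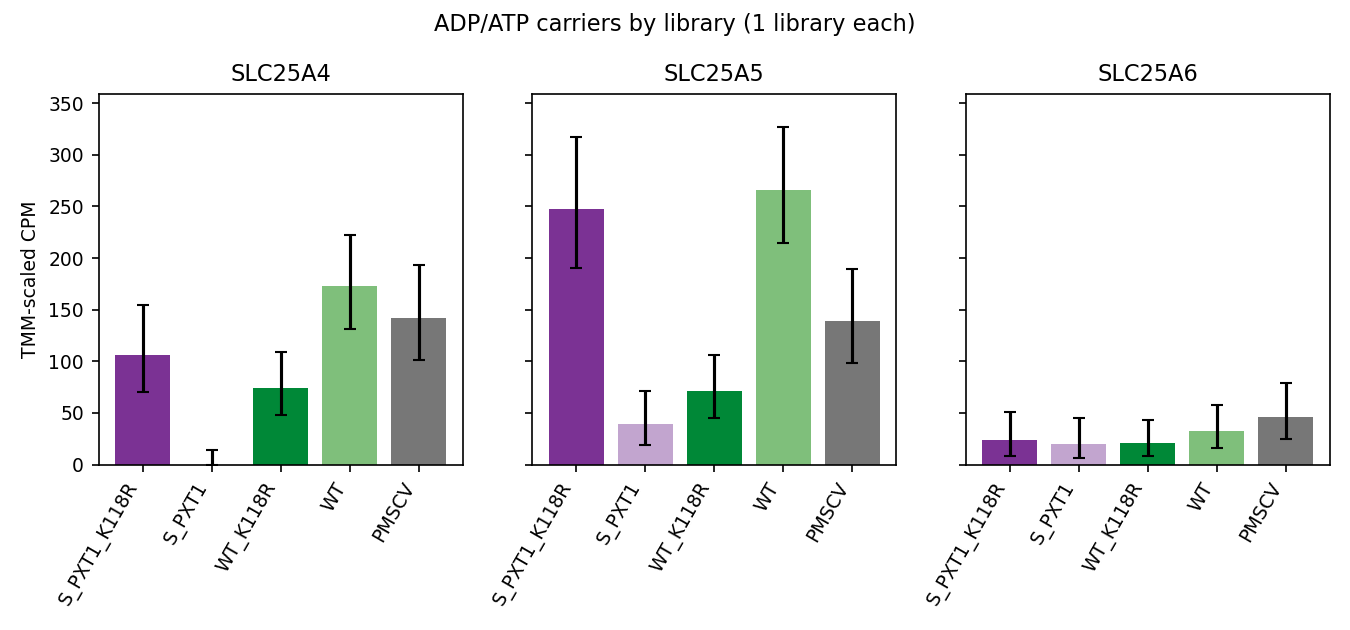
TMM-scaled CPM (y axis) of SLC25A4, SLC25A5 and SLC25A6 in the 5 libraries (x axis), with exact 95% Poisson intervals as error bars, 1 library per bar. SLC25A4 is at 0 in S_PXT1, SLC25A5 is at 248 CPM in S_PXT1_K118R and 39.0 in S_PXT1 but 71.1 in WT_K118R and 266 in WT, and all SLC25A6 intervals overlap.

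SLC25A6 (ENSG00000169100, chromosome X, 1386152 to 1392724) was low throughout, with 6 counts in S_PXT1_K118R, 5 in S_PXT1, 7 in WT_K118R, 11 in WT and 13 in PMSCV. Its fold was 1.21 (0.31 to 5.01) in S_PXT1_K118R over S_PXT1 and 0.64 (0.21 to 1.82) in WT_K118R over WT, so a difference was not detectable at this depth. SLC25A31, the ADP/ATP carrier of the germ line, had 0 counts in all libraries. SLC25A4, SLC25A5 and SLC25A6 summed to 96 counts in S_PXT1_K118R, 15 in S_PXT1, 56 in WT_K118R, 161 in WT and 92 in PMSCV. The sum was 6.45-fold higher (3.72 to 11.98) in S_PXT1_K118R than in S_PXT1 and 2.84-fold lower in WT_K118R than in WT (fold 0.35, 0.26 to 0.48). It was 8.05-fold lower in S_PXT1 than in WT (fold 0.12, 0.07 to 0.21), or a fold of 0.19 with the pseudogene rows of these carriers added, and 2.27-fold higher (1.62 to 3.22) in S_PXT1_K118R than in WT_K118R. Against PMSCV the folds were 0.18 (0.10 to 0.31) in S_PXT1 and 1.44 (1.11 to 1.88) in WT. The 3 genes held 54.5% of the family's counts in S_PXT1_K118R (46.9% to 62.1%), 26.3% in S_PXT1 (15.5% to 39.7%), 27.6% in WT_K118R (21.6% to 34.3%), 51.8% in WT (46.1% to 57.4%) and 48.9% in PMSCV (41.6% to 56.3%).

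Markers of other tissues were set beside these values, since SLC25A4 is abundant in muscle. Of 5 smooth muscle markers, 0, 1, 3, 5 and 5 had a count in S_PXT1_K118R, S_PXT1, WT_K118R, WT and PMSCV, and their sums were 0, 3.90, 11.9, 863 and 252 CPM. Of 6 striated muscle markers, ACTA1, MYH7, CKM and TTN had 0 counts in every library, and the list summed to at most 3 counts. The 4 immunoglobulin genes summed to 7.86, 7.80, 65.2, 1243 and 2262 CPM, and 5 fibroblast markers to 767, 729, 1740, 1325 and 1554 CPM in the same order. In WT_K118R against WT, smooth muscle markers (4 against 295 counts) and immunoglobulins (22 against 425) were lower together with SLC25A4 and SLC25A5. The squamous sum was also lower (371 against 938 counts), through KRT13, KRT4, SPRR3 and CRNN, while KRT5 (161 against 106), KRT6A (176 against 83) and KRT17 (32 against 27) had more counts in WT_K118R. Prostate markers summed to 108 counts in WT_K118R and 99 in WT, and fibroblast markers to 587 and 453. The part of these markers in the result was not tested. Between S_PXT1_K118R and S_PXT1 the squamous, prostate, smooth muscle and striated muscle lists each had 0 counts in S_PXT1_K118R and at most 2 in S_PXT1. Immunoglobulins had 2 counts in both, and fibroblast markers 195 counts in S_PXT1_K118R and 187 in S_PXT1. The Ba/F3 and early B cell list differed between them, with 84 counts in S_PXT1_K118R and 203 in S_PXT1, nearly all of GATA2, and its part in the difference of the carriers was not tested.

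SLC25A12, a calcium-regulated aspartate/glutamate carrier of the malate-aspartate shuttle, had counts in some libraries and next to none in others. SLC25A12 (ENSG00000115840, chromosome 2, 171784370 to 171999859, minus strand) had 40 counts in S_PXT1_K118R, 0 in S_PXT1, 39 in WT_K118R, 46 in WT and 1 in PMSCV. In S_PXT1_K118R, WT_K118R and WT the levels were 157 (112 to 214), 116 (82.2 to 158) and 135 (98.5 to 179) CPM, which overlap, and S_PXT1 and PMSCV stood apart from them. SLC25A12 was at least 10.4-fold higher in S_PXT1_K118R than in S_PXT1 and at least 8.98-fold lower in S_PXT1 than in WT. WT over PMSCV gave a ratio of 37.8 (6.46 to 1526), which rests on the single count in PMSCV. The fold was 0.86 (0.55 to 1.35) in WT_K118R over WT and 1.36 (0.85 to 2.17) in S_PXT1_K118R over WT_K118R.

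The table's SLC25A12 model encloses HAT1, a histone acetyltransferase gene on the opposite strand (chromosome 2, 171922448 to 171983682). HAT1 had 228 counts in S_PXT1_K118R, 265 in S_PXT1, 276 in WT_K118R, 317 in WT and 236 in PMSCV, which is 896, 1033, 818, 927 and 839 CPM. The sum of SLC25A12 and HAT1 was 1054, 1033, 934, 1062 and 843 CPM in the same order. In mouse (GRCm38) the genes lie apart, Slc25a12 at chr2:71271063-71367749 and Hat1 at chr2:71388958-71441622. Whether the counting used strand is not stated, and the exons of the models were not compared. Whether reads were exchanged between SLC25A12 and HAT1 is thus not known, and SLC25A12 is uncertain. Without SLC25A12 the family sum was 2.41-fold higher in S_PXT1_K118R than in S_PXT1, and the fold in WT over PMSCV was 1.17.

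**Figure D3:**
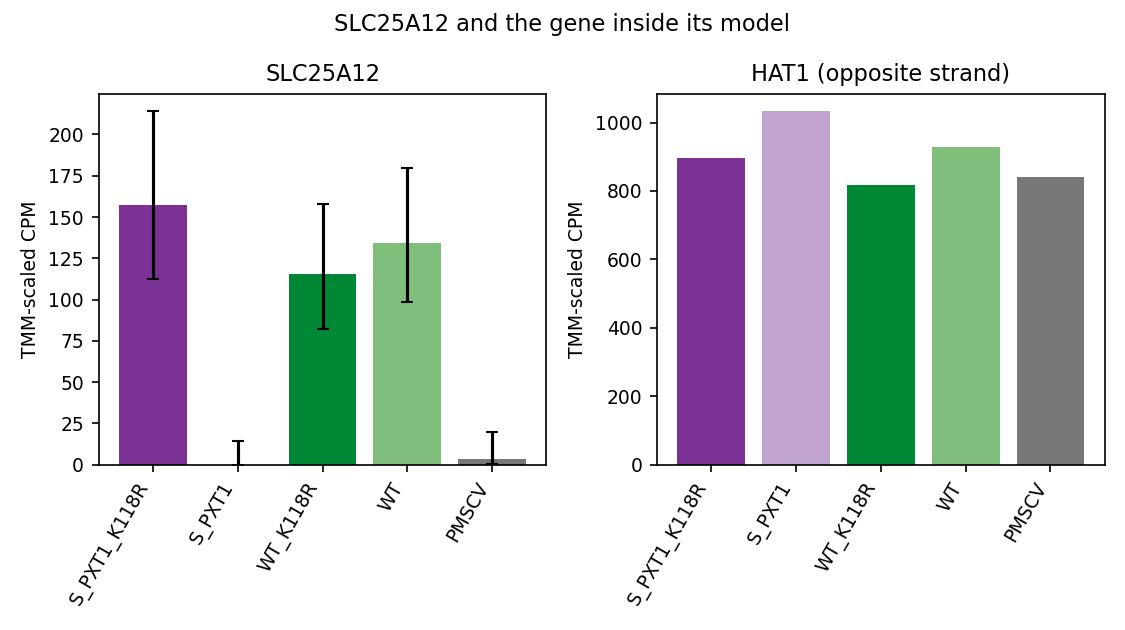
TMM-scaled CPM (y axes, different scales) of SLC25A12, with exact 95% Poisson intervals, and of HAT1, whose gene lies inside the table's SLC25A12 model, in the 5 libraries (x axes). SLC25A12 is at 0 in S_PXT1 and 3.56 CPM in PMSCV, whereas HAT1 lies between 818 and 1033 CPM.

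The other aspartate and glutamate carriers were barely counted. SLC25A13, the liver-type aspartate/glutamate carrier known as citrin, had 0 counts in S_PXT1_K118R and S_PXT1, 3 in both WT_K118R and WT, and 4 in PMSCV. SLC25A22, a glutamate carrier, had 1 count in S_PXT1 and 2 in PMSCV, and SLC25A18 had none.

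SLC25A3, the phosphate carrier that supplies the matrix with phosphate for ATP synthesis, had overlapping intervals in all libraries. SLC25A3 (ENSG00000075415, chromosome 12, 98593591 to 98606379) had 9 counts in S_PXT1_K118R, 11 in S_PXT1, 21 in WT_K118R, 17 in WT and 19 in PMSCV. They ran from 35.4 CPM (16.2 to 67.2) in S_PXT1_K118R to 67.6 (40.7 to 106) in PMSCV. The fold was 0.82 (0.30 to 2.19) in S_PXT1_K118R over S_PXT1 and 1.25 (0.63 to 2.53) in WT_K118R over WT. These intervals exclude neither no change nor a 2-fold change.

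**Figure D4:**
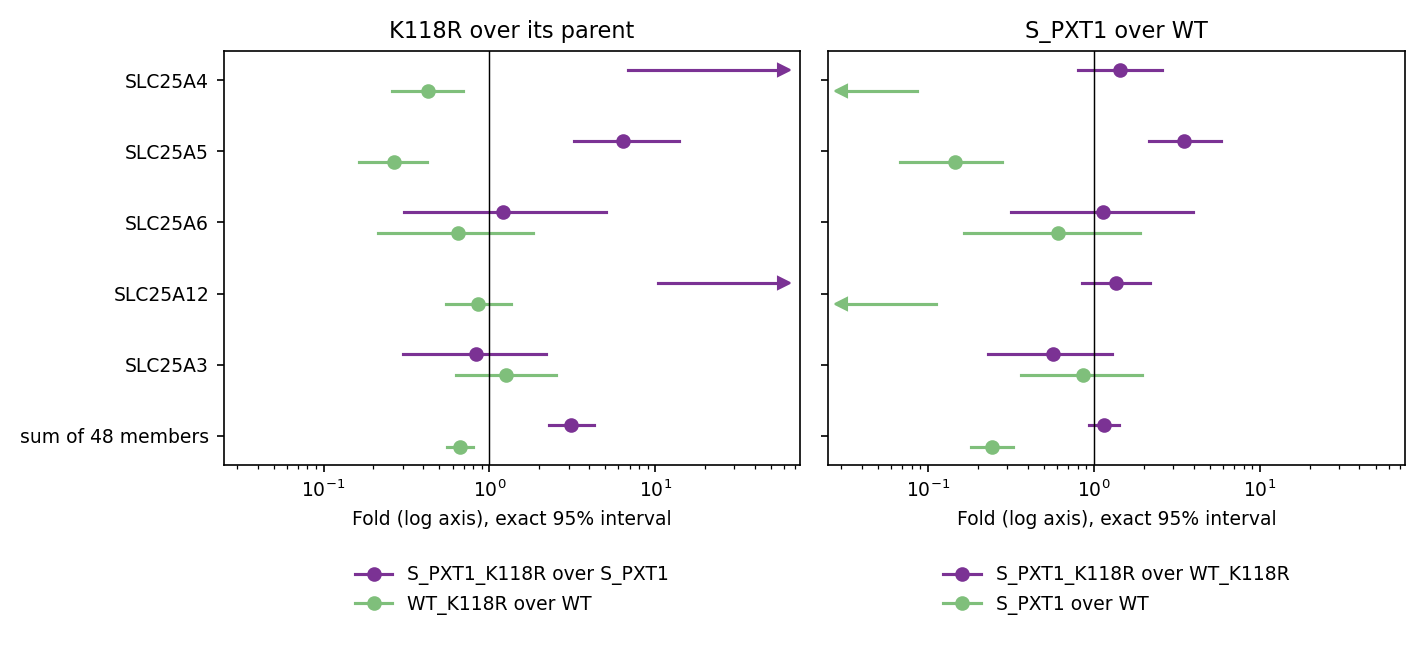
Fold on a log axis (x) with exact 95% intervals for SLC25A4, SLC25A5, SLC25A6, SLC25A12, SLC25A3 and the sum of 48 members, for K118R over its parent (left) and S_PXT1 over WT (right). Arrows mark a library at 0 counts, for which only the bound of the interval is drawn, and for SLC25A5 the points of each panel lie on opposite sides of 1.

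SLC25A36, a carrier of pyrimidine nucleotides, had 4 counts in S_PXT1_K118R, 7 in S_PXT1, 4 in WT_K118R, 14 in WT and 11 in PMSCV. Its fold in WT_K118R over WT was 0.29 (0.07 to 0.92), 3.45-fold lower. SLC25A33, the related pyrimidine carrier, had at most 2 counts in any library.

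The mitoferrins bring iron into mitochondria for haem and iron-sulfur clusters. SLC25A37, or mitoferrin 1 of erythroid cells, had 0 counts in both S_PXT1_K118R and S_PXT1, 12 in WT_K118R, 5 in WT and 2 in PMSCV. It was at least 2.09-fold lower in S_PXT1_K118R than in WT_K118R. SLC25A28, mitoferrin 2, was counted in every library, with 5, 4, 5, 8 and 7 counts in the order S_PXT1_K118R, S_PXT1, WT_K118R, WT and PMSCV.

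Among the remaining nucleotide and amino acid carriers the named genes rested on 6 counts. SLC25A24, a calcium-regulated ATP-Mg/phosphate carrier, had 0 counts in S_PXT1_K118R, 1 in S_PXT1, 6 in WT_K118R, 0 in WT and 2 in PMSCV. It was at least 1.19-fold higher in WT_K118R than in WT. SLC25A29, a carrier of basic amino acids, had 1 count in S_PXT1_K118R, 0 in S_PXT1, 1 in both WT_K118R and WT, and 6 in PMSCV. It was at least 1.07-fold lower in S_PXT1 than in PMSCV. SLC25A23, another ATP-Mg/phosphate carrier, had 3 counts in every library but WT_K118R, which had 6.

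Carriers of the citric acid cycle intermediates were counted at low levels. SLC25A1, the citrate carrier, had 3 counts in S_PXT1_K118R, 2 in S_PXT1, 5 in WT_K118R, 3 in WT and 5 in PMSCV. SLC25A11, the oxoglutarate/malate carrier, had 2, 4, 6, 7 and 4 counts in the same order. SLC25A10, the dicarboxylate carrier, had 1, 0, 4, 0 and 1 counts. With SLC25A21, which had none, this group of 4 summed to 23.6, 23.4, 44.5, 29.2 and 35.6 CPM, and its fold of 0.53 (0.17 to 1.45) in S_PXT1_K118R over WT_K118R leaves a difference undetectable at this depth. SLC25A39, a glutathione carrier, had 6, 2, 4, 7 and 4 counts in the same order.

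Of the 48 members, 36 had a count in at least 1 library and 9 had a count in all 5. The 9 were SLC25A5, SLC25A3, SLC25A6, SLC25A36, SLC25A28, SLC25A39, SLC25A11, SLC25A1 and SLC25A23. A further 12 had no count in any library, among them SLC25A18, SLC25A21, SLC25A31 and SLC25A52, where up to 3 counts a library would go unseen. S_PXT1_K118R and S_PXT1 had counts for 18 and 16 members, against 29 in each of WT_K118R, WT and PMSCV. Thinned to 250409 counts, the expected numbers were 18 in S_PXT1_K118R, 15.8 in S_PXT1, 26.8 in both WT_K118R and WT, and 28.4 in PMSCV. Over all genes, 7044 and 7393 had a count in S_PXT1_K118R and S_PXT1, against 11504 in WT_K118R, 11712 in WT and 11492 in PMSCV. The lower detection was thus not particular to the carriers. Another 12 members were at 0 in both S_PXT1 libraries and counted elsewhere, none with more than 12 counts in a library. In contrast 1 member, SLC25A20, the carnitine carrier, had its single count in S_PXT1_K118R. The share of all genes with either pattern was not counted, so these numbers are not read as particular to the carriers. Per gene length, SLC25A5 had the highest deposited FPKM of all members in every library, with 107 in S_PXT1_K118R, 16.5 in S_PXT1, 29.5 in WT_K118R, 111 in WT and 62.5 in PMSCV. How well a mouse transcript is counted on a human model depends on the gene, which limits such an order.

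**Figure D5:**
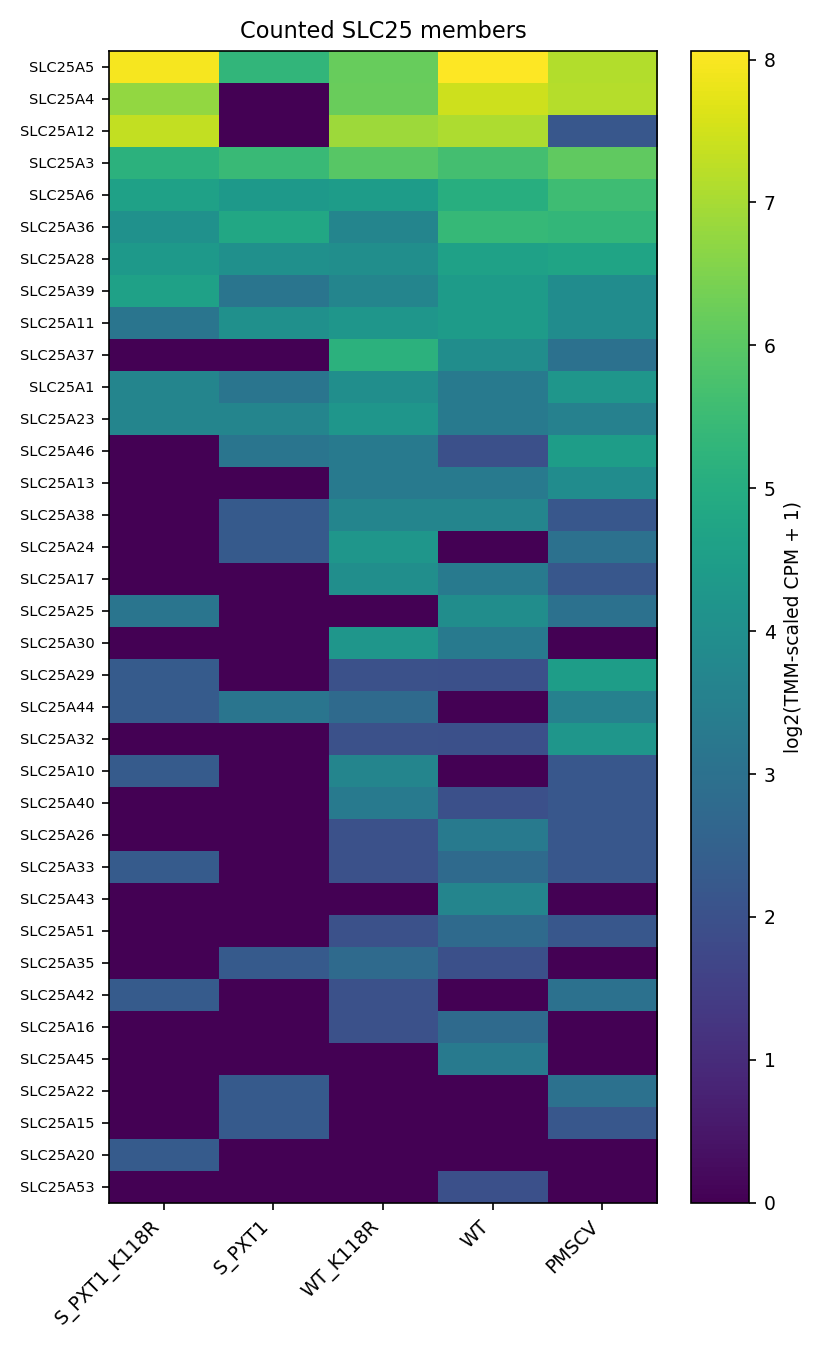
Level as log2(TMM-scaled CPM + 1) (colour) of the 36 SLC25 members with a count (rows, by falling mean count) in the 5 libraries (columns). The left columns, S_PXT1_K118R and S_PXT1, hold 18 and 16 coloured rows against 29 in each of the others.

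A 2-fold difference on log2(CPM + 1) was counted among the 34 members that averaged at least 1 CPM, beside all 13352 genes at that level. A stricter rule also asked that the 95% interval of the fold exclude 1. In S_PXT1_K118R over S_PXT1, 9 members were higher and 6 lower by 2-fold, against 15.2% and 17.6% of all genes. By the stricter rule 3 were higher (SLC25A4, SLC25A5 and SLC25A12) and 0 lower, against 1.15% and 1.27%. In WT_K118R over WT, 7 were higher and 7 lower, against 19.2% and 20.9% of all genes. By the stricter rule SLC25A24 was higher and SLC25A4, SLC25A5 and SLC25A36 were lower, against 1.91% and 2.4%.

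In S_PXT1_K118R over WT_K118R, 2 members were higher and 15 lower by 2-fold, against 8.94% and 44% of all genes, and by the stricter rule SLC25A5 was higher and SLC25A37 lower, against 0.801% and 6.53%. In S_PXT1 over WT, 5 were higher and 19 lower, against 9.02% and 42.5%, and by the stricter rule 0 were higher and SLC25A4, SLC25A5 and SLC25A12 were lower, against 0.749% and 6.3%. In S_PXT1 over PMSCV, 1 was higher and 18 lower, against 8.64% and 43.8%, and by the stricter rule 0 were higher and SLC25A4, SLC25A5 and SLC25A29 were lower, against 0.861% and 7.33%. In WT over PMSCV, 9 were higher and 9 lower, against 20.3% and 23.2%, and by the stricter rule SLC25A12 was higher and 0 were lower, against 1.45% and 2.28%. Most members hold too few counts to pass the stricter rule, and the 2-fold counts rest largely on members with under 10 counts.

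Median log2 ratios, again on log2(CPM + 1), were 0.00 for members and 0.00 for all genes in S_PXT1_K118R over S_PXT1, and 0.01 and 0.01 in WT_K118R over WT. In S_PXT1 over WT the members' median was -1.67 and that of all genes -0.48, and in S_PXT1_K118R over WT_K118R they were -0.52 and -0.49. In S_PXT1 over PMSCV they were -1.15 and -0.56, and in WT over PMSCV 0.17 and -0.03. Over genes averaging 20 counts or more the median was 0.07 in S_PXT1 over WT. It was 0.04 in S_PXT1_K118R over WT_K118R and 0.20 in S_PXT1 over PMSCV. The negative medians of all genes in these comparisons thus did not hold for genes with more counts. Among the 1547 genes that averaged 20 counts or more, the highest library was at least 4-fold above the lowest for 142 genes (9.18%), with values under 3 counts set to 3. SLC25A4, SLC25A5 and SLC25A12, the 3 members at that level, were among them, with spans of 14.8, 6.83 and 14.7-fold.

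The genes that work with these carriers were described by their sums and by their single genes, which differed. Mitochondrial carriers enter through TOM and the small TIM proteins and are inserted by the TIM22 complex. The 16 genes of this import machinery summed to 558 CPM in S_PXT1_K118R, 554 in S_PXT1, 572 in WT_K118R, 535 in WT and 612 in PMSCV. Most of these counts were of TOMM70, the receptor that takes up carrier precursors, named after its values were seen, with 117, 115, 125, 125 and 111 counts in the same order. The other 15 genes summed to 25 counts in S_PXT1_K118R, 27 in S_PXT1, 68 in WT_K118R, 58 in WT and 61 in PMSCV, and were lower in both S_PXT1 libraries. Their fold was 0.49 (0.30 to 0.78) in S_PXT1_K118R over WT_K118R, 0.62 (0.38 to 0.996) in S_PXT1 over WT and 0.49 (0.30 to 0.78) in S_PXT1 over PMSCV, but 0.93 (0.52 to 1.67) in S_PXT1_K118R over S_PXT1. S_PXT1_K118R and S_PXT1 had counts for 7 and 8 of the 16 genes, against 13 in each of WT_K118R, WT and PMSCV. Over all genes the number detected was also lower in both S_PXT1 libraries, as given above. TIMM9, a small TIM chaperone, was the one gene past the stricter rule, with 0 counts in both S_PXT1 and WT_K118R against 7 in WT. Of all genes, 6.3% were lower by that rule in S_PXT1 over WT and 2.4% in WT_K118R over WT.

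Partners of adenine nucleotide exchange (VDAC channels, cyclophilin D, adenylate and creatine kinases and ATP synthase) summed to 4391 CPM in S_PXT1_K118R, 4218 in S_PXT1, 4751 in WT_K118R, 4422 in WT and 4324 in PMSCV. The fold of their sum was 1.04 (0.96 to 1.13) in S_PXT1_K118R over S_PXT1 and 1.07 (1.001 to 1.15) in WT_K118R over WT. Most of the sum was of ATP5MC3 and ATP5F1B, subunits of ATP synthase named after their values were seen. Without these the sum was 625 CPM in S_PXT1_K118R, 561 in S_PXT1, 705 in WT_K118R, 778 in WT and 857 in PMSCV. That fold was 1.11 (0.88 to 1.40) in S_PXT1_K118R over S_PXT1 and 0.91 (0.76 to 1.08) in WT_K118R over WT, which turns the direction in WT_K118R over WT. It was 0.72 (0.59 to 0.89) in S_PXT1 over WT and 0.66 (0.53 to 0.81) in S_PXT1 over PMSCV.

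Of the 21 exchange partners at 1 CPM or more, 0 passed the stricter rule in S_PXT1_K118R over S_PXT1, where 1.15% of all genes were higher and 1.27% lower. In WT_K118R over WT, 1 was higher and 3 were lower, against 1.91% and 2.4% of all genes. S_PXT1_K118R over WT_K118R had 1 higher and 1 lower (0.801% and 6.53%), and S_PXT1 over WT 0 higher and 2 lower (0.749% and 6.3%). S_PXT1 over PMSCV had 1 higher and 3 lower (0.861% and 7.33%), and WT over PMSCV 0 in either direction (1.45% and 2.28%). VDAC1, the main ATP channel of the outer membrane, had 10 counts in S_PXT1_K118R, 5 in S_PXT1, 7 in WT_K118R, 19 in WT and 18 in PMSCV, a fold of 0.37 (0.13 to 0.93) in WT_K118R over WT. PPIF, or cyclophilin D of the permeability transition pore, had 0 counts in S_PXT1_K118R against 14 in WT_K118R. ATP5PO, a subunit of the ATP synthase stalk, had 1 count in S_PXT1 against 18 in WT. ATP5PB, another stalk subunit, had 5 counts in S_PXT1 against 16 in PMSCV. The genes past the rule upwards, named after their values were seen, were VDAC2 (S_PXT1_K118R over WT_K118R), ATP5MC1 (S_PXT1 over PMSCV) and ATP5F1D (WT_K118R over WT). VDAC2 had 8 counts in S_PXT1_K118R, 5 in S_PXT1, 0 in WT_K118R, 10 in WT and 7 in PMSCV. WT_K118R alone was thus without a count of VDAC2, also against WT. In the same order ATP5MC1 had 3, 9, 4, 3 and 2 counts, and ATP5F1D 3, 0, 6, 0 and 2.

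The 10 enzymes of the malate-aspartate and citrate shuttles summed to 1800 CPM in S_PXT1_K118R, 1774 in S_PXT1, 1885 in WT_K118R, 2024 in WT and 1668 in PMSCV. Without GLUD1 and OGDH, which held most of the counts, the sum was 436 CPM in S_PXT1_K118R, 370 in S_PXT1, 536 in WT_K118R, 576 in WT and 533 in PMSCV. That fold was 1.18 (0.89 to 1.57) in S_PXT1_K118R over S_PXT1, 0.64 (0.50 to 0.83) in S_PXT1 over WT and 0.69 (0.53 to 0.90) in S_PXT1 over PMSCV. By the stricter rule 1 of the 10 was higher in S_PXT1_K118R over S_PXT1 (1.15% of all genes), 3 were lower in S_PXT1 over WT (6.3%) and 2 in S_PXT1 over PMSCV (7.33%). In WT_K118R over WT, S_PXT1_K118R over WT_K118R and WT over PMSCV, 1 was lower in each (2.4%, 6.53% and 2.28%). MDH1, the cytosolic malate dehydrogenase, had 10 counts in S_PXT1_K118R, 2 in S_PXT1, 18 in WT_K118R, 10 in WT and 18 in PMSCV, 5.04-fold higher (1.07 to 47.3) in S_PXT1_K118R than in S_PXT1. GOT2, the mitochondrial aspartate aminotransferase, had 1, 3, 17, 19 and 8 counts in the same order, and was lower in both S_PXT1 libraries than in their WT counterparts. MDH2, the mitochondrial malate dehydrogenase, had 11, 8, 26, 26 and 23 counts. GOT1, the cytosolic aminotransferase, had 5 counts in WT against 13 in PMSCV, a fold of 0.32 (0.09 to 0.95).

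A list of 19 other carriers and carrier-like proteins, among them the pyruvate carrier, UCP2 and the outer membrane proteins MTCH1 and MTCH2, summed to 1439 CPM in S_PXT1_K118R, 1575 in S_PXT1, 1544 in WT_K118R, 1983 in WT and 1284 in PMSCV. The fold of the sum was 0.78 (0.69 to 0.87) in WT_K118R over WT, 0.79 (0.70 to 0.90) in S_PXT1 over WT and 1.54 (1.36 to 1.76) in WT over PMSCV. Without MTCH1 and MTCH2 these folds were 0.78 (0.60 to 1.02), 0.77 (0.58 to 1.02) and 1.13 (0.86 to 1.47). Of its 15 members at 1 CPM or more, 0 were past the stricter rule in any of the 6 comparisons. Across these comparisons 0.749% to 1.91% of all genes were higher by that rule and 1.27% to 7.33% lower. With 15 genes, 0 is therefore not read as particular to this list.

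Over single genes, 3 of the 4 partner lists had medians below that of all genes in S_PXT1 over PMSCV, where all genes had a median log2 ratio of -0.56 and 43.8% were lower by 2-fold. The median was -1.25 with 8 of 15 lower for import, -0.99 with 10 of 21 lower for exchange, -1.08 with 5 of 10 lower for the shuttle enzymes, and 0.00 with 2 of 15 lower for the other carriers. In S_PXT1_K118R over S_PXT1 the medians were 0.00, 0.01, 0.19 and -0.10 in the same order of lists.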

How the data were processed

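For 5 libraries, raw counts per gene and length-scaled FPKM values stand side by side in the table the authors deposited, per the file headers. Tools listed in the submitters' processing notes, without their roles, are FastQC, cutadapt 1.9 and HISAT2 2.2.1. No source used here gives the counting tool, strand setting, build or annotation. Of the FPKM to count ratios compared between libraries, 99.99% agreed, to a log2 tolerance of 0.01, with a single factor for each library, so counts were used. Without molecular identifiers, PCR copies of 1 molecule can be counted more than once, so intervals and floors cover counting error only. There were 0 value columns without a library and 0 rows without a gene name.

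Library sizes were scaled by TMM in edgeR 4.0.16 under R 4.3.3. Log2 ratios used CPM with a pseudocount of 1 CPM, which understates differences of low genes, over genes with a mean of at least 1 CPM. Folds used scaled counts without a pseudocount, with the exact conditional binomial 95% interval (scipy 1.17.1), and levels carry exact Poisson intervals. A fold against 0 counts is given as the bound of its exact 95% interval. Shares carry Clopper-Pearson intervals. With 1 library per group no test was made. The steps were tested on simulated data.

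Members, lists and comparisons were chosen with earlier results of these data known. Members were named with full values at a mean of at least 10 counts, as an ADP/ATP carrier, or at 2-fold with an interval excluding 1, and others were added by role after their values were seen. Pathway genes were named by the same 2-fold rule, at most the 4 most counted per list. The exchange partners past the rule upwards, and the genes with most counts in each list, were named in addition after their values were seen. Alternatives were other pseudocounts, filters, thresholds, DESeq2 1.42.0 size factors, library totals, FPKM and adding pseudogene rows. A filter at a mean of 20 counts, leaving out SLC25A12, and leaving out genes with at least 20% of a partner list's counts were chosen after seeing the data. Mouse coding sequences came from GENCODE M21 (GRCm38), and their coordinates were not mixed with those of the table.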

Additional observations from a re-analysis of the deposited data

Results flagged for a closer look

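K118R over its parent went in opposite directions in the S_PXT1 and WT backgrounds for SLC25A4, SLC25A5, the sum of SLC25A4, SLC25A5 and SLC25A6, and the sum of all 48 members, each with an interval that excluded 1 on either side. On log2(CPM + 1), SLC25A4 had ratios of 6.74 in S_PXT1_K118R over S_PXT1 and -1.21 in WT_K118R over WT, a difference of 7.95, of which the first rests on the 0 counts in S_PXT1. SLC25A5 had ratios of 2.64 and -1.89 in the same order, a difference of 4.53. The 3 carriers summed had ratios of 2.67 and -1.50, a difference of 4.17, and all members summed had 1.63 and -0.60, a difference of 2.23. For S_PXT1 over WT, the direction was opposite with and without K118R for SLC25A5 (1.79 and -2.74, a difference of 4.53) and for the 3 carriers summed (1.18 and -2.99, a difference of 4.17). These use the same 4 libraries as the K118R ratios. With 1 library per group, none of these differences was tested.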

How the results depend on the processing

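Of 150 alternative values of the 24 summary results, 122 stayed within a set range and 28 moved. The range was 1.5-fold for counts, the exact interval for summed folds, and an interval from the ranked member ratios for medians. For a summed fold whose interval excluded 1, 0 were on the other side of 1. Medians within the range still shifted. In S_PXT1 over WT the median of -1.67 was -2.16 with a pseudocount of 0.1 CPM and -0.58 with FPKM. In S_PXT1 over PMSCV the median of -1.15 was -2.19 with a mean of 20 counts and -0.58 with FPKM. The summed folds of all members and of SLC25A4, SLC25A5 and SLC25A6 stayed inside their intervals with DESeq2 size factors, library totals and pseudogene rows added, though pseudogene rows moved the 3-carrier fold in S_PXT1 over WT to 0.19, against 0.12. The log2 ratios of SLC25A4, SLC25A5 and SLC25A12 kept within theirs in all 90 alternatives. For SLC25A4 and SLC25A12, at 0 counts in S_PXT1, the intervals with S_PXT1 have an open side and are a weak check. In S_PXT1_K118R over S_PXT1 the SLC25A4 ratio was 6.74, but 4.33 with deposited FPKM values and 10.05 with a pseudocount of 0.1 CPM. The counts past 2-fold, which rest on few reads, moved. In the order S_PXT1_K118R over S_PXT1, WT_K118R over WT, S_PXT1_K118R over WT_K118R, S_PXT1 over WT, S_PXT1 over PMSCV and WT over PMSCV, they were 15, 14, 17, 24, 19 and 18. With a mean of 5 CPM as the filter they were 9, 8, 10, 14, 11 and 8, with deposited FPKM values 6, 7, 8, 10, 7 and 7, and with a mean of 20 counts, chosen after seeing the data, 3, 2, 1, 3, 3 and 1. Stricter filters leave fewer members to count, and the cause of the other shifts was not tested. A pseudocount of 5 CPM gave 10 in S_PXT1 over PMSCV, 15 in S_PXT1 over WT, 11 in S_PXT1_K118R over WT_K118R and 6 in S_PXT1_K118R over S_PXT1. In WT_K118R over WT a 1.5-fold threshold gave 25 and a 3-fold threshold 9. With the filter at 20 counts, which leaves 3 members, the median log2 ratio was -7.08 in S_PXT1 over WT, 0.51 in S_PXT1_K118R over WT_K118R, 6.74 in S_PXT1_K118R over S_PXT1 and -1.21 in WT_K118R over WT. Without the most counted genes of a partner list, chosen after seeing the data, the summed fold turned to 0.91, against 1.07, for exchange partners in WT_K118R over WT, and to 0.87, against 1.23, for other carriers in S_PXT1 over PMSCV. No paired analysis was possible because each group holds 1 library and the labels carry no replicate numbers. Depth limits members under about 10 counts.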

Other observations

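The 9 SLC25A5 pseudogene rows of the table, which are not members, summed to 12 counts in S_PXT1_K118R, 9 in S_PXT1, 13 in WT_K118R, 9 in WT and 10 in PMSCV. SLC25A5 itself had 63, 10, 24, 91 and 39 counts in the same order. All 41 pseudogene rows of the family summed to 12, 10, 15, 10 and 11 counts.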
